A study of Mus musculus with 12 samples.

Results

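The 10 genes described here, of 32285 in the deposited matrices, encode inflammatory cytokines and the feedback regulators of the transcription factor NF-kB. They were chosen by name: Il1b, Il6 and Tnf (cytokines), Il1rn (a cytokine antagonist), Nfkbia, Nfkbid, Nfkbiz and Tnfaip3 (NF-kB feedback), and Ptgs2 and Socs3 (targets of cytokine signalling). All 10 were present in all 4 gene expression libraries of mouse aorta. Their levels were followed over whole libraries and over cells sorted by marker genes into myeloid (neutrophil, macrophage), lymphoid (B, T/NK) and stromal (endothelial, fibroblast, smooth muscle) gates.

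The study asked how methazolamide (MTZ), an oral carbonic anhydrase inhibitor that the sample labels write as methoxazolamide, acts on atherosclerosis. Male ApoE-/- mice on a C57BL/6J background, which lack apolipoprotein E in every cell and develop plaques on a fatty diet, entered at 8 weeks of age and were kept for 24 weeks. Mice of the Healthy group ate normal chow and received saline, and those of the atherosclerosis (AS) group ate chow with 1% cholesterol and 10% fat and received saline. The MTZ-treated group ate the same fatty chow and received MTZ from week 13 for 12 weeks, after saline, and the MTZ-preventive group received MTZ with that chow for all 24 weeks. MTZ was given by gavage at 25 mg/kg every other day. Each group of 18 mice gave 1 library from 6 pooled aortas, so no spread between mice was measured, no p-value was computed, and every limit printed is a 95% limit for counting error only.

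The libraries kept 11121 (Healthy), 2160 (AS), 6796 (MTZ-treated) and 14186 (MTZ-preventive) cells, with 27070203, 3698152, 14686690 and 30876201 UMIs (unique molecular identifiers, each standing for 1 captured RNA molecule). AS was the shallowest, so a floor of 3 UMIs was worth 0.811 counts per 1e6 UMIs (CPM) there and 0.0972 CPM in MTZ-preventive. Apoe itself was at 705 CPM in the library labelled Healthy and between 8.78 and 12.6 CPM in the other 3, which goes against the genotype on that label, so each comparison with this library is one with the library labelled Healthy. Between 24 and 231 barcodes were shared by any pair of libraries. The gates held very different numbers of cells. Myeloid cells numbered 26, 129, 118 and 65 in the library labelled Healthy, AS, MTZ-treated and MTZ-preventive, the order used throughout, while lymphoid cells numbered 5105, 23, 238 and 2079 and stromal cells 4706, 1239, 5594 and 8663. Neutrophil-gated cells numbered 1, 50, 3 and 34. Adipocyte-gated cells made up 0.261%, 18.6%, 0.309% and 9.28% of cells, and whether they came from fat around the vessel was not tested.

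Interleukin-1 beta, interleukin-6 and tumour necrosis factor are secreted signals of activated myeloid cells, lymphocytes and vascular wall cells, and the first and last of them switch on NF-kB through their receptors. NF-kB in turn drives genes that shut it down, among them the IkB proteins that bind it and the ubiquitin-editing enzyme A20, so a rise of these inhibitors is read in the field as a trace of recent signalling. In the atherosclerotic aorta this loop is known from macrophages, neutrophils and the cells of the wall, and gentle digestion of a tissue can also start it.

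NF-kB binds decameric kB sites in promoters, and 4 of the 9 members with a promoter in the RefSeq table used (build GRCm38.p6, Nfkbiz had no entry) held a kB consensus match in the 250 bases before a start site. The 9 have 14 such windows, of which 4 held a match. These 4 are shown because each carries a match upstream of a gene whose level is described here.
Il6 (chr5:30012864-30013113, plus strand): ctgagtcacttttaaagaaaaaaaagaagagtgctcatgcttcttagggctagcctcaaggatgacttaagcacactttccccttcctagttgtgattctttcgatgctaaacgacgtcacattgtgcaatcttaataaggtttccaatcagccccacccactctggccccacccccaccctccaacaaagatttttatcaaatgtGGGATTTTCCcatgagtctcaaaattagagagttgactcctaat
Nfkbia (chr12:55492648-55492897, minus strand): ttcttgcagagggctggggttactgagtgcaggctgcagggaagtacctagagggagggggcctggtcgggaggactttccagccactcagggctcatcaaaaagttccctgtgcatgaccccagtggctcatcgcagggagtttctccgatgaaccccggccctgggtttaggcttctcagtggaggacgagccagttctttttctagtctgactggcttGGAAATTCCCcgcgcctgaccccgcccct
Nfkbid (chr7:30422156-30422405, plus strand): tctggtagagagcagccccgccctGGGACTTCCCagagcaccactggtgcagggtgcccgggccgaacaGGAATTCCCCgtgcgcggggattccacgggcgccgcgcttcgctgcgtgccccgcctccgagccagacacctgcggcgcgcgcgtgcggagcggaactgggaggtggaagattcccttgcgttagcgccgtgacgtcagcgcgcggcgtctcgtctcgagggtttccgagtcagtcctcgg
Tnfaip3 (chr10:19015411-19015660, minus strand): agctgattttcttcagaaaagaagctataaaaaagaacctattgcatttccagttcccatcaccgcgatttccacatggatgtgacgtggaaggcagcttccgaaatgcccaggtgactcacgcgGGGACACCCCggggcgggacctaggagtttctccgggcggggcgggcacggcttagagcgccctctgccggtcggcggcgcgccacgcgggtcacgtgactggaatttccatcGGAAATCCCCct

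Capitals mark the kB consensus matches, searched on both strands and read 5′ to 3′ along the gene's strand. Counted from the start site, they span -44 to -35 in Il6 and -29 to -20 in Nfkbia. Nfkbid holds a pair, at -226 to -217 and -181 to -172, and so does Tnfaip3, at -125 to -116 and -12 to -3. The match in Il6 lies downstream of an AP-1 match (TGANTCA) at -249 to -243, the pair in Nfkbid lies upstream of a cyclic AMP response element (CRE, TGACGTCA) at -51 to -44, and Tnfaip3 has an AP-1 match at -136 to -130, with no overlap between motifs. Of 32851 mouse promoter windows of this length, 7.25% held the kB consensus, 6.75% the AP-1 motif and 1.55% the CRE. Il1b, Il1rn, Tnf, Ptgs2 and Socs3 had no kB consensus letters in their windows. Il1rn held an AP-1 match at -141 to -135 and Socs3 a STAT match (TTCNNNGAA, in 7.02% of windows) at -154 to -146, and 2 other windows of Nfkbid held STAT matches too, at -167 to -159 and -139 to -131.

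Over all kept cells, the AS library differed from the library labelled Healthy by more Il1b, Il1rn and Il6 and by less Nfkbid and Tnfaip3. A gene was called where its ratio of CPM was at least 2-fold and the limits of the ratio left out 1. By this rule 3 of 10 members were higher in AS, where 9.66% of all genes with at least 20 UMIs were, and 2 of 10 were lower, where 13.7% were. Against AS, MTZ-treated had 3 of 10 lower (Il1b, Il1rn and Tnf; 5.63% of all genes) and 0 of 10 higher (8.6%). MTZ-preventive had 2 of 10 lower than AS (Il1b and Il1rn; 3.83%) and 3 of 10 higher (Il6, Nfkbid and Tnfaip3; 7.36%). The median log2 ratio of the 10 was 0.74 for AS against the library labelled Healthy, beside -0.10 over all genes, then -0.46 beside 0.10 for MTZ-treated against AS and 0.29 beside 0.09 for MTZ-preventive against AS. All 3 comparisons share the AS library. In whole libraries, fewer cells of a type and less RNA per cell cannot be told apart.

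**Figure D1:**
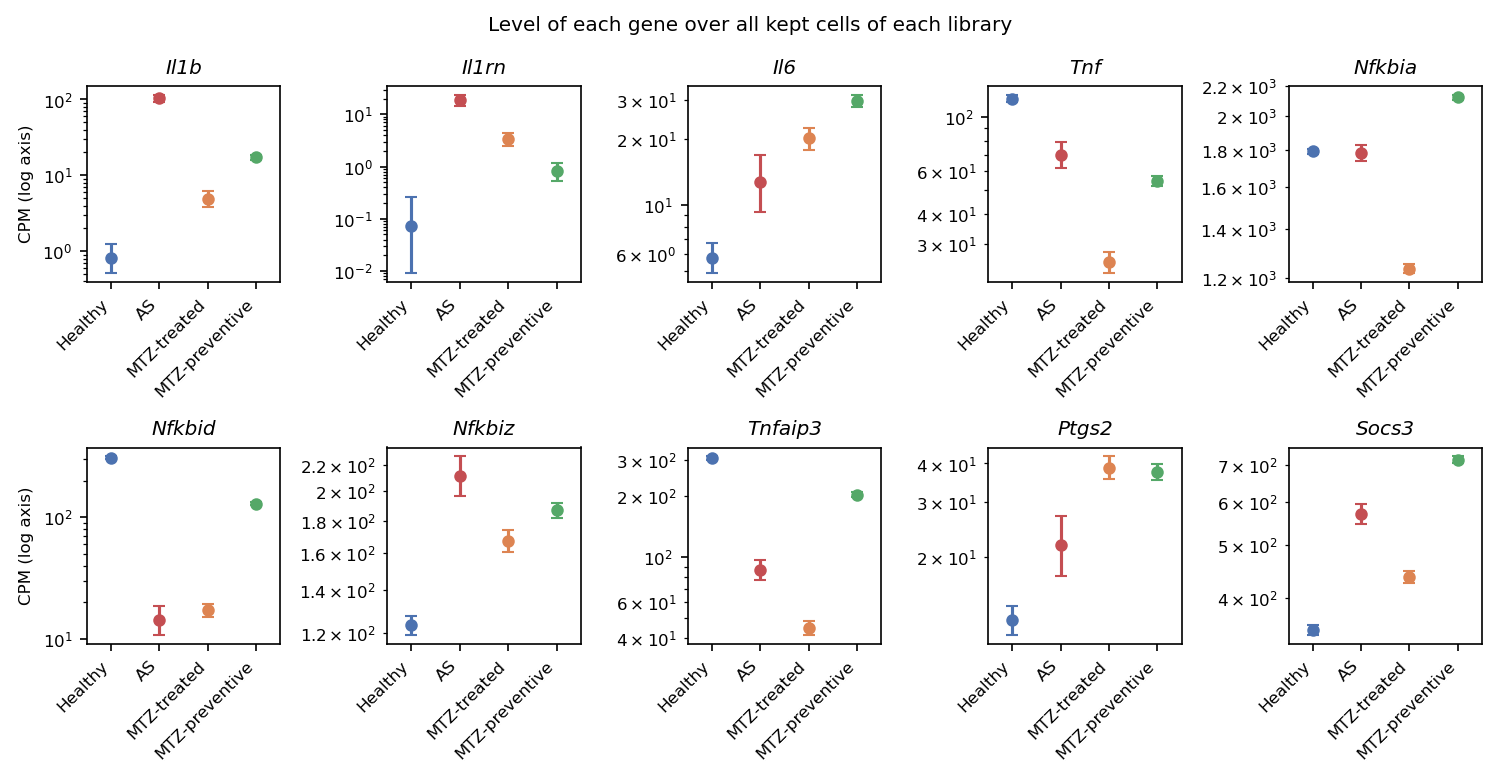
Level of each of the 10 genes over all kept cells of the 4 libraries, in CPM on a log axis, with bars for the 95% Poisson limits of 1 library each. Il1b stands at 104 CPM in AS and at 0.813 CPM in the library labelled Healthy, and Nfkbid at 14.3 CPM in AS and 310 CPM in the library labelled Healthy.

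Il1b (ENSMUSG00000027398), the gene of interleukin-1 beta, was at 0.813 CPM (0.509 to 1.23), 104 CPM (93.7 to 115), 4.90 CPM (3.84 to 6.17) and 17.2 CPM (15.8 to 18.8) over whole libraries. AS stood above the other 3 libraries and the library labelled Healthy below them, with no overlap of limits. AS was 128-fold (83.2 to 206) higher than the library labelled Healthy, MTZ-treated was 21.2-fold (16.4 to 27.6) lower than AS, and MTZ-preventive was 6.03-fold (5.27 to 6.88) lower than AS. The summed level of 12 neutrophil markers moved with it, at 23.9, 4056, 66.3 and 127 CPM, and without neutrophil-gated cells the 3 log2 ratios of Il1b were 6.28, -3.77 and -2.48.

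By gate, Il1b was highest in neutrophil-gated cells, at 1398 CPM in AS and 3801 CPM in MTZ-preventive, the only libraries with at least 20 such cells. After each cell was thinned to 1000 UMIs, 36.0% (22.9 to 50.8) of neutrophil-gated cells in AS and 76.5% (58.8 to 89.3) in MTZ-preventive held an Il1b UMI, beside 44.0% and 82.4% unthinned, at median depths of 1516 and 1302.5 UMIs. B-gated cells, which should lack the gene, held none in 3149 cells of the library labelled Healthy and none in 1151 of MTZ-preventive, at median depths of 1923 and 1642 UMIs. Neutrophil-gated cells of MTZ-preventive thus held 2.72-fold (2.18 to 3.39) more Il1b per UMI than those of AS. Macrophage-gated cells, next by the median over libraries, were at 0, 27.8, 49.5 and 260 CPM, a range that overlapped those of the stromal gates. In AS they lay below the smooth muscle (97.3 CPM), endothelial (65.9 CPM) and fibroblast (33.0 CPM) gates. The macrophage value rests on few UMIs, so its order against the endothelial and fibroblast gates is not settled. Neutrophil markers summed to 312 CPM in the macrophage gate of AS and to 2298, 691 and 1515 CPM in those stromal gates. Their part in this order was not tested. MTZ-preventive macrophage-gated cells were 9.35-fold (3.35 to 32.2) above those of AS, from 31 and 79 cells.

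In the myeloid gate as a whole Il1b was at 0, 555, 61.3 and 1710 CPM, so MTZ-preventive lay highest and the whole-library order did not hold there. Taken against the floor of 3 UMIs per library, AS was 13.1-fold higher than the library labelled Healthy, which held 0 Il1b UMIs in 26 cells. MTZ-treated was 9.06-fold (5.68 to 15.2) lower than AS. MTZ-preventive was 3.08-fold (2.49 to 3.81) higher than AS. The gate was made up differently in each library, with neutrophil-gated cells being 50 of 129 in AS, 3 of 118 in MTZ-treated and 34 of 65 in MTZ-preventive.

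Il1b was also read in stromal cells, at 1.46 CPM, 60.6 CPM (50.6 to 72.1), 2.68 CPM and 12.5 CPM (11.0 to 14.3). AS was 41.5-fold (25.2 to 72.2) higher than the library labelled Healthy, and MTZ-treated and MTZ-preventive were 22.6-fold (15.3 to 34.3) and 4.83-fold (3.87 to 6.02) lower than AS. The 12 neutrophil markers summed to 37.1, 1499, 23.4 and 50.7 CPM in the same stromal cells. Of the 12, all were detected in AS and MTZ-treated stromal cells, Trem1 was at 0 in those of the library labelled Healthy and Cd177 at 0 in those of MTZ-preventive. Lymphoid cells held 1, 0, 2 and 2 Il1b UMIs.

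For every 100 neutrophil-marker UMIs, AS neutrophil-gated cells held 1.74 Il1b UMIs (1.48 to 2.04), AS fibroblasts 2.18 (1.46 to 3.12), AS smooth muscle cells 4.23 (3.20 to 5.51) and AS endothelial cells 9.55 (6.72 to 13.2). The limits of the fibroblast ratio overlapped those of the neutrophil-gated cells, and those of the smooth muscle and endothelial ratios lay above them. In MTZ-preventive the ratio was 6.99 (5.98 to 8.13) in neutrophil-gated cells and 24.7 (21.4 to 28.6) in stromal cells. Neutrophil-gated cells were chosen by these same markers, and stromal cells had to hold fewer of them than of their own. The ratios are thus not like for like, and the source of the stromal Il1b UMIs was not tested. In stromal cells with no UMI of any neutrophil, macrophage, B or T/NK marker (1470, 436, 3941 and 4604 cells, a selection added after the data were seen), Il1b was at 0.571, 6.89 (2.53 to 15.0, 6 UMIs), 1.80 and 6.37 CPM (4.95 to 8.08). There the log2 ratio was 3.59 for AS against the library labelled Healthy, -1.94 for MTZ-treated against AS and -0.11 for MTZ-preventive against AS, so the lower stromal level in MTZ-preventive was not seen in marker-free cells.

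**Figure D2:**
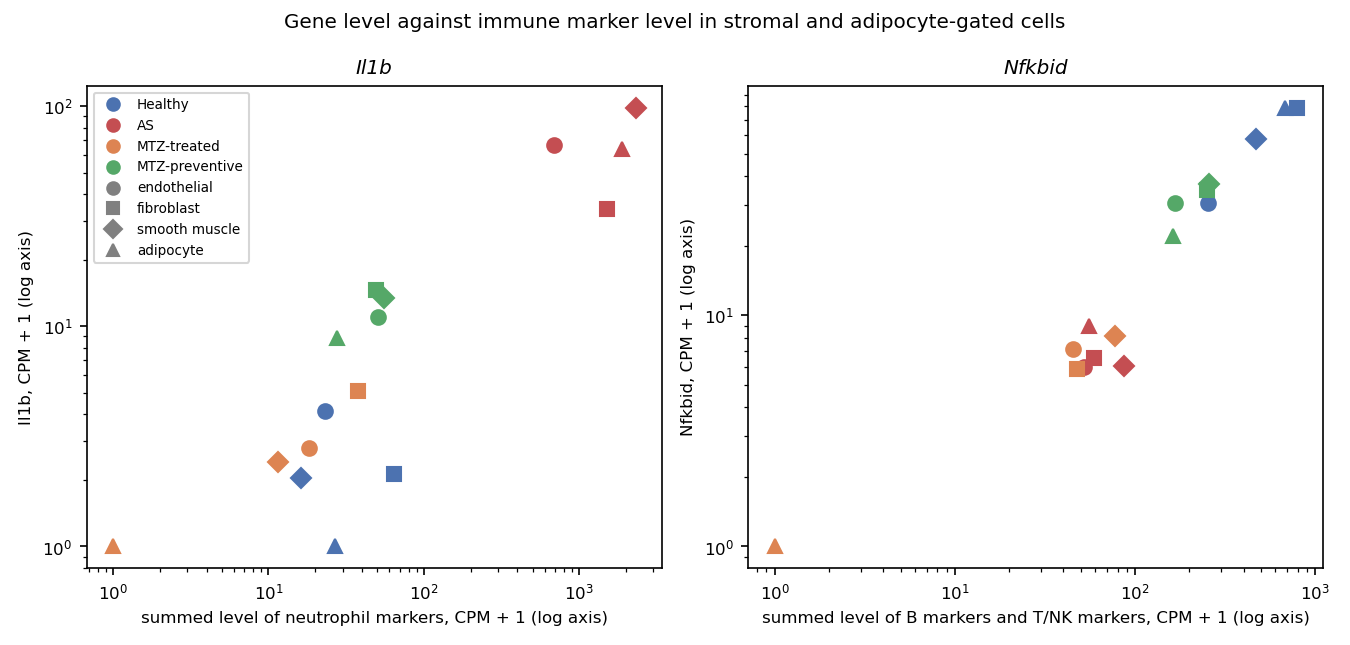
Left, Il1b against the summed neutrophil markers, and right, Nfkbid against the summed B and T/NK markers, each in CPM plus 1 on log axes, with 1 point for each of the endothelial, fibroblast, smooth muscle and adipocyte gates of each library. The AS points lie highest for Il1b, where the stromal marker sum was 1499 CPM, and for Nfkbid the fibroblast point of the library labelled Healthy (77.5 CPM) lies above the fibroblast points of the other 3 (4.84 to 33.9 CPM), while its endothelial point (29.6 CPM) lies beside that of MTZ-preventive (29.7 CPM).

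Il1rn (ENSMUSG00000026981) encodes the interleukin-1 receptor antagonist, which occupies the receptor without signalling. It was at 0.0739 CPM (2 UMIs), 18.7 CPM (14.5 to 23.6), 3.34 CPM (2.47 to 4.41) and 0.810 CPM (0.524 to 1.20) over whole libraries, highest in AS like Il1b but with MTZ-treated above MTZ-preventive. AS was 253-fold (67.3 to 2130) above the library labelled Healthy, whose 2 UMIs make the ratio imprecise. MTZ-treated was 5.59-fold (3.82 to 8.24) and MTZ-preventive 23.0-fold (14.4 to 38.0) lower than AS. Neutrophil-gated cells held most of it per UMI, at 249 and 167 CPM in AS and MTZ-preventive. Macrophage-gated cells followed at 14.5, 39.0, 127 and 14.5 CPM, where both values of 14.5 CPM lie under the floor of 3 UMIs. MTZ-treated macrophage-gated cells were 3.25-fold (1.45 to 8.60) above those of AS, in the direction opposite to the whole library. In MTZ-treated, 83.7% of all Il1rn UMIs lay in the macrophage gate. In the whole myeloid gate the levels of 14.1, 120, 126 and 76.9 CPM put AS and MTZ-treated at a log2 ratio of only 0.07. The 14.1 CPM of the library labelled Healthy also lies under that floor.

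**Figure D3:**
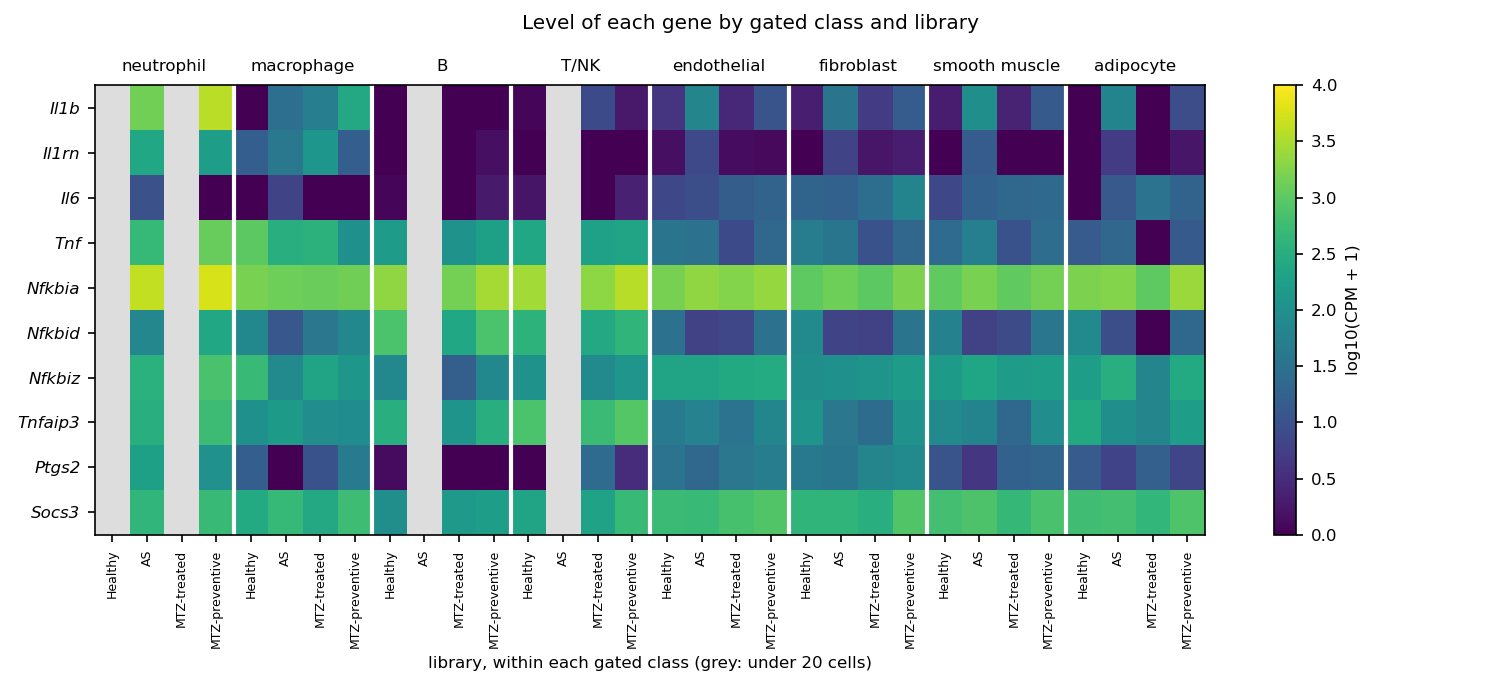
Levels of the 10 genes in 8 marker-gated classes of the 4 libraries, as log10 of CPM plus 1, with gates of fewer than 20 cells in grey. Il1b and Il1rn are highest in neutrophil-gated cells, Nfkbid lies at 238 to 742 CPM in B-gated and 256 to 420 CPM in T/NK-gated cells, and Il6 at 16.5 to 63.2 CPM in the fibroblast gate.

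Il6 (ENSMUSG00000025746) encodes interleukin-6, the signal that acts through STAT3 and drives acute-phase proteins. It was low in every library, at 5.76 CPM (4.89 to 6.74), 12.7 CPM (9.34 to 16.9), 20.2 CPM (17.9 to 22.6) and 29.8 CPM (27.9 to 31.8), and highest in MTZ-preventive. AS was 2.21-fold (1.56 to 3.07) above the library labelled Healthy, but without B-gated and T/NK-gated cells, which made up 45.9% of the latter, the log2 ratio dropped from 1.14 to 0.34. MTZ-treated was 1.59-fold (1.16 to 2.21) and MTZ-preventive 2.34-fold (1.75 to 3.21) above AS, the first short of the 2-fold rule.

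Most Il6 UMIs lay in stromal cells, at 90.4%, 63.8%, 91.6% and 84.7%. The adipocyte gate, which is not among the stromal gates, ranged from 0 to 32.2 CPM over the libraries, with a median of 14.9 CPM. The ends of this range came from few cells, 29 in the library labelled Healthy and 21 in MTZ-treated. The upper end lies under the floor of 3 UMIs. The fibroblast gate held 18.3, 16.5, 26.8 and 63.2 CPM and the smooth muscle gate 6.26, 16.8, 21.0 and 22.5 CPM, and their ranges overlapped. In fibroblasts MTZ-preventive was 3.83-fold (2.30 to 6.89) above AS. Thinned to 1000 UMIs, 1.52%, 1.46%, 2.36% and 4.14% of fibroblasts held an Il6 UMI (2.96%, 2.92%, 4.55% and 7.62% unthinned), beside 0.0318% and 0.174% of B-gated cells in the library labelled Healthy and MTZ-preventive. The fibroblasts had median depths of 1430.5, 1280, 1529 and 1532 UMIs. In stromal cells free of immune markers the level was 6.29, 14.9, 18.2 and 39.9 CPM, and MTZ-preventive stayed above AS by a log2 ratio of 1.42, beside 1.54 over all stromal cells. In these marker-free cells AS also passed the 2-fold rule against the library labelled Healthy, from 13 and 33 UMIs. Myeloid cells held 2 Il6 UMIs in AS and none in the other 3 libraries.

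Tnf (ENSMUSG00000024401), the tumour necrosis factor gene, was at 119 CPM (115 to 123), 70.0 CPM (61.8 to 79.1), 25.2 CPM (22.7 to 27.9) and 54.4 CPM (51.8 to 57.0). MTZ-treated was lowest and 2.78-fold (2.36 to 3.27) below AS, while AS lay below the library labelled Healthy by a log2 ratio of -0.77, short of the rule. Lymphoid cells held 75.2% of the Tnf UMIs in the library labelled Healthy and 4.63% in AS, and the sign turned without them, since without B-gated and T/NK-gated cells the log2 ratio was 0.32. Within the myeloid gate the level was 959, 384, 361 and 538 CPM. AS was there 2.50-fold (1.82 to 3.41) below the library labelled Healthy, and MTZ-treated differed from AS by a log2 ratio of -0.09. MTZ-preventive neutrophil-gated cells, at 1170 CPM, were 2.48-fold (1.67 to 3.68) above those of AS at 472 CPM. MTZ-preventive macrophage-gated cells, at 101 CPM, were 3.24-fold (1.48 to 8.42) below those of AS at 329 CPM, from only 31 and 79 cells. The 2 myeloid classes thus went opposite ways, and the difference between them was not tested.

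In stromal cells Tnf was at 35.3, 38.8, 8.68 and 21.8 CPM, and MTZ-treated was 4.47-fold (3.31 to 6.02) below AS. Neutrophil markers in these cells summed to 37.1, 1499, 23.4 and 50.7 CPM and macrophage markers to 110, 409, 180 and 113 CPM. B markers summed to 341, 37.4, 21.9 and 135 CPM and T/NK markers to 227, 26.5, 34.4 and 101 CPM. The source of the stromal Tnf UMIs was not tested. In the marker-free stromal cells Tnf was at 13.3, 8.04 (3.23 to 16.6, 7 UMIs), 6.35 (4.75 to 8.30) and 13.1 CPM. The log2 ratio of MTZ-treated to AS there was -0.34, beside -2.16 over all stromal cells. The 2-fold rule was thus passed over all stromal cells and not over the marker-free ones, where the AS value rests on 7 UMIs.

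Nfkbia (ENSMUSG00000021025) encodes IkB alpha, which holds NF-kB in the cytoplasm and is resynthesised when NF-kB is active. It was abundant, at 1791, 1781, 1235 and 2124 CPM over whole libraries, and none of the 3 log2 ratios (-0.01, -0.53 and 0.25) reached 2-fold. Marker-free stromal cells were less even, at 809 (784 to 833), 1554 (1472 to 1639), 1036 (1014 to 1058) and 1498 CPM (1475 to 1521). Before that selection the libraries ranged from 988 to 1617 CPM in fibroblasts, 1045 to 1543 CPM in smooth muscle and 1497 to 2300 CPM in endothelial cells. The 809 CPM thus lies below every stromal gate, and the part of the selection in this unevenness was not tested. After thinning, 71.6%, 71.9%, 60.6% and 78.5% of cells held a UMI. Neutrophil-gated cells were highest, at 4301 CPM in AS and 5806 CPM in MTZ-preventive, above every other gate. The summed level of 12 genes linked to tissue dissociation, 17786, 13633, 13961 and 18752 CPM, was also highest in MTZ-preventive, and its part in the level of Nfkbia was not tested.

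Nfkbid (ENSMUSG00000036931) encodes a nuclear IkB protein of antigen-stimulated lymphocytes, and its level differed most in the feedback group. It was at 310 CPM (304 to 317), 14.3 CPM (10.7 to 18.7), 17.1 CPM (15.0 to 19.3) and 129 CPM (125 to 133), high in the 2 libraries with many lymphocytes and low in the other 2. AS was 21.6-fold (16.5 to 28.9) below the library labelled Healthy. MTZ-preventive was 9.01-fold (6.88 to 12.1) above AS, while MTZ-treated differed from AS by a log2 ratio of 0.25 (-0.18 to 0.71). B markers summed to 1737, 75.7, 89.5 and 519 CPM and T/NK markers to 1040, 53.0, 160 and 390 CPM over the same libraries. Without B-gated and T/NK-gated cells the log2 ratios were -3.23 for AS against the library labelled Healthy and 2.41 for MTZ-preventive against AS, from -4.44 and 3.17.

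Per B cell the level was close in the 2 lymphocyte-rich libraries. B-gated cells held 740 CPM of Nfkbid in the library labelled Healthy and 742 CPM in MTZ-preventive, and 46.5% and 47.7% of them held a UMI after thinning (65.6% and 63.2% unthinned). The 76 B-gated cells of MTZ-treated were lower, at 238 CPM. T/NK-gated cells held 382, 256 and 420 CPM in the library labelled Healthy, MTZ-treated and MTZ-preventive, and AS had 23 lymphoid cells, at 357 CPM together. Over lymphoid cells, the log2 ratio of MTZ-preventive to the library labelled Healthy was 0.02.

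Stromal cells held 60.8, 5.21, 5.92 and 33.8 CPM of Nfkbid, in the same order as the T/NK markers in those cells (227, 26.5, 34.4 and 101 CPM). The B markers there (341, 37.4, 21.9 and 135 CPM) had AS and MTZ-treated the other way round. The 5.21 and 5.92 CPM of Nfkbid in AS and MTZ-treated rest on 11 and 73 UMIs, and their order is within counting error. AS was 11.7-fold (6.48 to 23.5) below the library labelled Healthy and MTZ-preventive 6.49-fold (3.60 to 13.1) above AS. For every 100 B-marker UMIs, B-gated cells held 11.5 Nfkbid UMIs in the library labelled Healthy, 3.61 in MTZ-treated and 14.0 in MTZ-preventive. Stromal cells of the same libraries held 17.8, 27.0 and 25.1. For every 100 T/NK-marker UMIs, T/NK-gated cells of these libraries held 9.76, 5.26 and 11.4 Nfkbid UMIs, and stromal cells 26.7, 17.2 and 33.4. B-gated and T/NK-gated cells were chosen by these same markers, so their ratios and the stromal ones are not like for like. The source of the stromal Nfkbid UMIs was not tested. Marker-free stromal cells were at 14.9, 0, 4.55 and 18.9 CPM, with a floor of 3.44 CPM for AS. Taken against that floor, the log2 ratio was -2.11 for AS against the library labelled Healthy and 2.46 for MTZ-preventive against AS. The myeloid gate moved the same way in the last comparison, at 34.3 and 145 CPM, a 4.24-fold (1.83 to 10.4) difference. In that gate the B markers summed to 6.85 CPM in AS and 103 CPM in MTZ-preventive and the T/NK markers to 27.4 and 85.5 CPM, and their part in the result was not tested.

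Nfkbiz (ENSMUSG00000035356), another nuclear IkB gene and a coactivator for the Il6 promoter in macrophages, varied little over whole libraries. It was at 123, 211, 167 and 187 CPM, with log2 ratios of 0.78, -0.34 and -0.18, none past the rule. Stromal levels of 140, 168, 166 and 185 CPM were closer still. Macrophage-gated cells stood apart, at 491, 78.0, 217 and 130 CPM, with AS 6.30-fold (3.29 to 12.7) below the library labelled Healthy and MTZ-treated 2.78-fold (1.55 to 5.34) above AS. The first of these rests on 25 macrophage-gated cells of the library labelled Healthy, and with a looser cell filter the myeloid log2 ratio was 0.01 in place of -1.37.

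Tnfaip3 (ENSMUSG00000019850) encodes A20, which removes the ubiquitin chains that carry the signal to NF-kB. It was at 307 CPM (300 to 313), 86.5 CPM (77.3 to 96.5), 44.8 CPM (41.4 to 48.4) and 203 CPM (198 to 208), in the order of the lymphocyte share but for AS, which stood above MTZ-treated. AS was 3.54-fold (3.17 to 3.97) below the library labelled Healthy and MTZ-preventive 2.35-fold (2.10 to 2.64) above AS. MTZ-treated was 1.93-fold (1.68 to 2.21) below AS, just short of the rule. T/NK-gated cells were highest, at 730, 533 and 876 CPM in the library labelled Healthy, MTZ-treated and MTZ-preventive, followed by neutrophil-gated cells at 338 and 543 CPM in AS and MTZ-preventive. Without B-gated and T/NK-gated cells AS against the library labelled Healthy had a log2 ratio of -0.62 (from -1.82) and MTZ-preventive against AS one of 0.71 (from 1.23), so neither reached 2-fold.

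In fibroblasts Tnfaip3 was at 118, 37.4, 24.95 and 111 CPM, with MTZ-preventive 2.97-fold (2.11 to 4.31) above AS. The T/NK markers in the same fibroblasts summed to 327, 15.4, 30.2 and 100.3 CPM and the B markers to 465, 42.9, 16.8 and 149 CPM. For every 100 T/NK-marker UMIs, fibroblasts held 35.9, 243 (from 14 marker UMIs), 82.7 and 111 Tnfaip3 UMIs. T/NK-gated cells held 18.6 in the library labelled Healthy, 10.9 in MTZ-treated and 23.8 in MTZ-preventive. T/NK-gated cells were chosen by these same markers, so their ratios and those of fibroblasts are not like for like. The part of these markers in the result was not tested. In all stromal cells the levels were 89.2, 50.7, 25.5 and 96.0 CPM. In marker-free stromal cells they were 31.8 (27.2 to 37.0), 37.9 (26.1 to 53.2), 19.995 and 68.2 CPM. That left MTZ-preventive above AS by a log2 ratio of 0.85, short of 2-fold. AS against the library labelled Healthy went from -0.82 to 0.25, with overlapping limits of the marker-free levels.

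**Figure D4:**
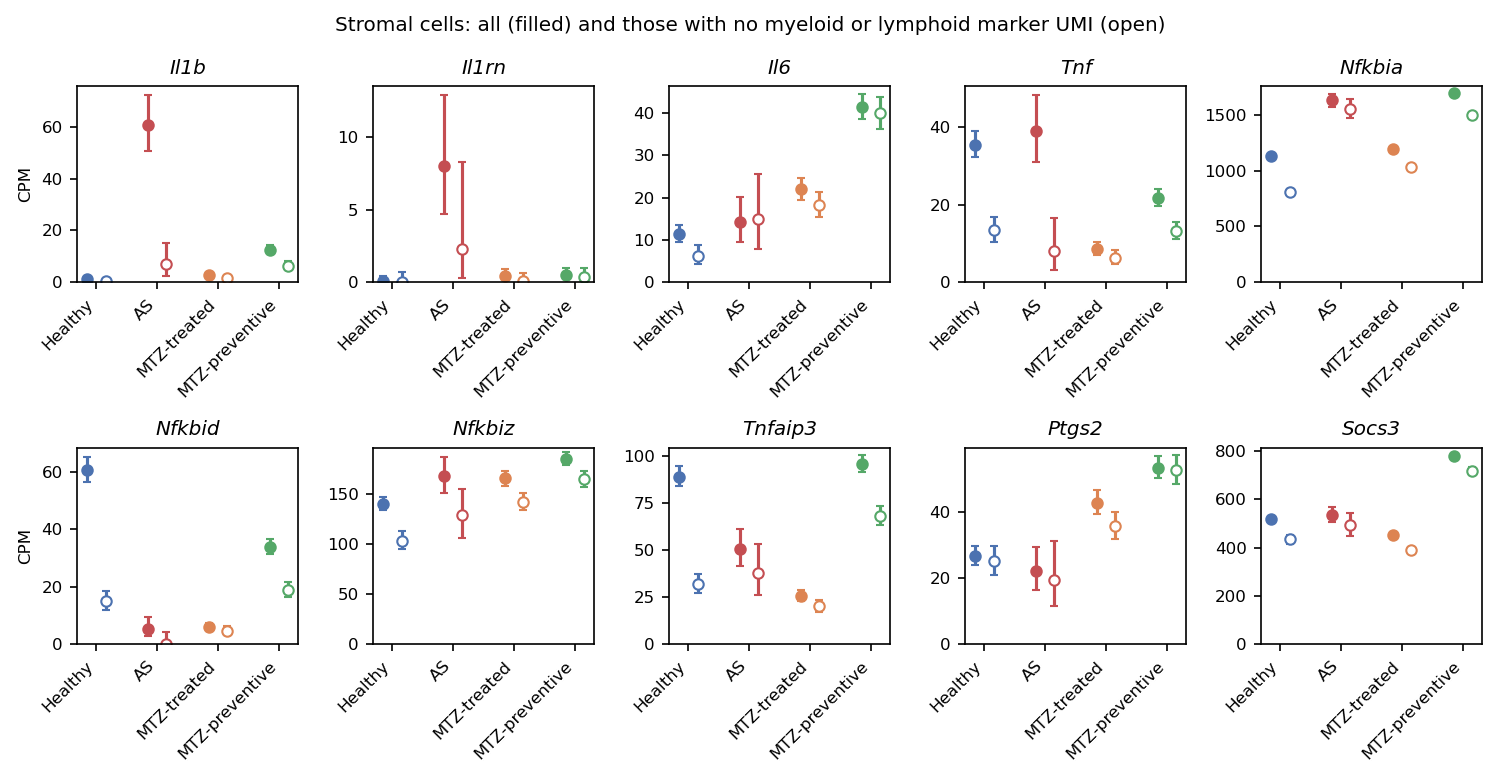
Level of each of the 10 genes in stromal cells of the 4 libraries, in CPM on linear axes from 0, over all stromal cells (filled) and over those with no UMI of any neutrophil, macrophage, B or T/NK marker (open). Il1b in AS drops from 60.6 to 6.89 CPM between them, while Il6 in MTZ-preventive stays at 41.4 and 39.9 CPM.

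Ptgs2 (ENSMUSG00000032487) encodes cyclooxygenase-2, the inducible enzyme of prostaglandin synthesis. It was at 12.6 CPM (11.3 to 14.0), 21.9 CPM (17.4 to 27.2), 38.8 CPM (35.7 to 42.1) and 37.5 CPM (35.4 to 39.8), higher in both MTZ libraries than in AS. MTZ-treated was 1.77-fold (1.40 to 2.26) and MTZ-preventive 1.71-fold above AS, and neither passed the rule. Neutrophils held 25.9% of the Ptgs2 UMIs of AS, and without neutrophil-gated cells the log2 ratios against AS were 1.21 and 1.16, in place of 0.83 and 0.78.

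Stromal cells held 26.8, 22.3, 42.9 and 53.6 CPM of Ptgs2, and fibroblasts 39.7, 35.2, 66.1 and 78.6 CPM. In the stromal gate MTZ-preventive was 2.41-fold (1.80 to 3.30) and MTZ-treated 1.93-fold (1.43 to 2.66) above AS. Marker-free stromal cells gave 25.1, 19.5, 35.9 and 52.9 CPM, so the order of the libraries was kept. Thinned, 2.30%, 2.71%, 5.09% and 6.15% of fibroblasts held a UMI, beside 0.0635% of B-gated cells of the library labelled Healthy. The myeloid gate went the other way for MTZ-treated, with 14.1, 71.9, 9.19 and 68.4 CPM, 7.83-fold (2.34 to 41.0) below AS. The neutrophil-gated cells that held 187 CPM in AS numbered 3 in MTZ-treated.

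Socs3 (ENSMUSG00000053113), a target of STAT3 that blocks the interleukin-6 receptor, was at 350, 570, 437 and 716 CPM over whole libraries, with log2 ratios of 0.70, -0.38 and 0.33, all short of the rule. Stromal levels were 518, 537, 451 and 782 CPM. In fibroblasts, at 410, 407, 322 and 819 CPM, MTZ-preventive was 2.01-fold (1.81 to 2.24) above AS. The dissociation-linked genes summed to 12918, 10076, 10178 and 16464 CPM in these fibroblasts, also highest in MTZ-preventive, and their part in the fibroblast levels of Socs3, Il6, Tnfaip3 and Ptgs2 was not tested. Lymphoid cells held 152, 334, 182 and 346 CPM, with MTZ-preventive 2.28-fold (2.13 to 2.44) above the library labelled Healthy, from 2079 and 5105 cells. The share of lymphoid cells with a UMI after thinning was 23.0% and 11.97% in these 2 libraries (37.7% and 23.0% unthinned, at median depths of 1862 and 2150 UMIs). T/NK-gated cells, at 505 and 213 CPM, differed 2.37-fold. B-gated cells, at 176 and 94.9 CPM, differed in the same direction but by less than 2-fold. Socs3 was the only member called in that lymphoid comparison, 1 of 6 tested, where 5.24% of all genes were called higher. No member was called lower (1.86%).

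Split by gate, the counts of called members in stromal cells were 1 of 9 higher (Il1b; 3.84% of all genes) and 1 of 9 lower (Nfkbid; 10.1%) for AS against the library labelled Healthy. For MTZ-treated against AS, 3 were lower (Il1b, Il1rn and Tnf; 4.52%) and 0 higher (4.51%). For MTZ-preventive against AS, 2 were lower (Il1b and Il1rn; 2.43%) and 3 higher (Il6, Nfkbid and Ptgs2; 5.46%). In myeloid cells 3 of 8 were higher (Il1b, Il1rn and Tnfaip3; 12.1%) and 2 of 8 lower (Tnf and Nfkbiz; 10.5%) in AS than in the library labelled Healthy, but with a looser cell filter the log2 ratio of Tnfaip3 turned from 1.17 to -0.34 and that of Nfkbiz from -1.37 to 0.01. MTZ-treated had 3 of 9 lower than AS (Il1b, Tnfaip3 and Ptgs2, beside 8.08% of all genes) and 0 higher (6.16%). MTZ-preventive had 2 of 9 higher than AS (Il1b and Nfkbid, beside 7.24%) and 0 lower (9.34%). Neutrophil-gated cells were 1 of 26 myeloid cells in the library labelled Healthy and 50 of 129 in AS. They were 3 of 118 in MTZ-treated and 34 of 65 in MTZ-preventive. The part of this mix in the myeloid counts was not tested. Lymphoid cells gave 1 of 6 higher in AS than in the library labelled Healthy (Socs3; 3.0%) and 0 lower (0.372%). They gave 0 higher and 0 lower for MTZ-treated against AS (1.32% and 2.57%) and for MTZ-preventive against AS (0.422% and 2.63%), with only 23 AS cells behind each.

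**Figure D5:**
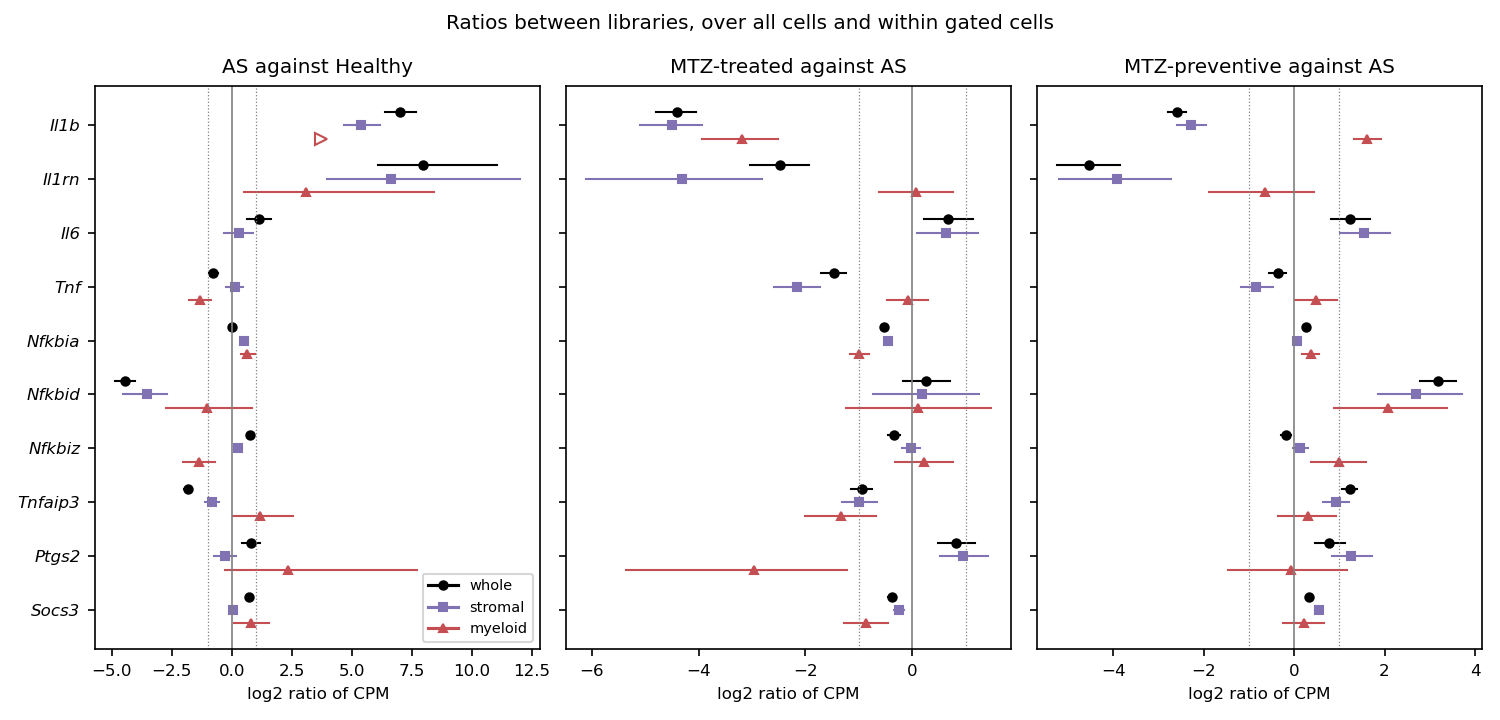
Log2 ratio of CPM between libraries with 95% counting limits for each of the 10 genes, over whole libraries (circles), stromal cells (squares) and myeloid cells (triangles) in 3 comparisons. Dotted lines mark 2-fold, and an open triangle marks a value taken against the floor of 3 UMIs. The stromal Il1rn value of AS against the library labelled Healthy is drawn though it had under the 20 UMIs needed for a call. For Il1b in MTZ-preventive against AS, the whole and stromal values are negative (-2.59 and -2.27) and the myeloid value positive (1.62).

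Of 66 further genes of the same pathways, listed in 6 roles, 18 of 65 tested were called higher (9.66% of all genes) and 4 lower (13.7%) in AS than in the library labelled Healthy, with a median log2 ratio of 0.07. Receptors and adaptors held 9 of the 18, among 17 tested. Cd14, the co-receptor for lipopolysaccharide, was at 4.91, 208, 29.0 and 46.8 CPM, 42.3-fold (35.2 to 51.3) higher in AS than in the library labelled Healthy. Nlrp3, the sensor of the inflammasome that matures interleukin-1 beta, was at 0.480, 19.5, 3.34 and 3.01 CPM. Il1r2, the decoy receptor that neutrophils carry, was at 2.88, 87.9, 4.29 and 12.1 CPM. Ptges, the prostaglandin E synthase, was at 5.47, 46.0, 15.9 and 43.5 CPM, and unlike the other 3 stood almost as high in MTZ-preventive as in AS. The lowest ratios belonged to Rel (323, 51.9, 51.8 and 135 CPM), an NF-kB subunit of lymphocytes, to Nfkbie (40.6, 15.7, 10.3 and 24.2 CPM), a further IkB, to Nfkb1 (129, 62.7, 51.5 and 95.2 CPM) and to Ptger4 (19.4, 9.46, 11.2 and 13.5 CPM), a prostaglandin E receptor.

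Against AS, MTZ-treated had 10 of 63 of these genes lower (5.63% of all genes) and 0 higher (8.6%), with a median log2 ratio of -0.38. Il1r2 was 20.5-fold, Cd14 7.17-fold, Nlrp3 5.84-fold and Osm, an interleukin-6 family cytokine of neutrophils and macrophages, 5.78-fold lower. The highest ratios there were those of Ptgs1 (1.60-fold), Pla2g4a (1.41-fold), Adam17 (1.36-fold) and Hpgd (1.36-fold), none past the rule. MTZ-preventive had 6 of 65 lower (3.83%) and 2 higher (7.36%), with a median of 0.11. Il1r2 was 7.26-fold, Nlrp3 6.46-fold, Cd14 4.44-fold and Il10, an anti-inflammatory cytokine with 10 UMIs in AS, 3.48-fold lower there. Rel was 2.60-fold higher and Lif 4.39-fold (1.46 to 21.6, from 3 UMIs in AS), and the next highest ratios, 1.86-fold for Zfp36l1 and 1.80-fold for Il11, did not pass the rule. In stromal cells the counts were 7 higher (3.84% of all genes) and 2 lower (10.1%) of 62 for AS against the library labelled Healthy. They were 0 higher (4.51%) and 5 lower (4.52%) of 61 for MTZ-treated, and 2 higher (5.46%) and 3 lower (2.43%) of 64 for MTZ-preventive, both against AS.

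Across 25 gates of at least 50 cells, each a class in 1 library, the genes with the most similar pattern were found by Spearman's rho among 6515 genes. These are descriptions, since gates of 1 library share its depth and free RNA. Il1b was most like Cxcl2 (rho 0.95), a neutrophil-attracting chemokine, and C5ar1 (0.91), the complement C5a receptor. Il1rn was most like Clec4e (0.90), Tnf like Lcp1 (0.93) and Nfkbid like Vps37b (0.95), with Rel close by (0.91). Il6 was most like Cygb (0.89), Ptgs2 like Agtrap (0.88) and then Ptgs1 (0.84), the constitutive cyclooxygenase, Tnfaip3 like Pim1 (0.93), Nfkbiz like Jun (0.83), Nfkbia like Chd7 (0.81) and Socs3 like Klf9 (0.87). Between members, the highest values were 0.81 for Il1b with Il1rn, 0.79 for Nfkbid with Tnfaip3, 0.73 for Nfkbiz with Socs3, 0.72 for Tnf with Tnfaip3 and 0.66 for Il6 with Ptgs2.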

How the data were processed

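The gene expression files hold raw counts of UMIs per gene and barcode. The authors made them with Cell Ranger 5.0.0 per the file headers, with STAR and mm10 named in the submitters' processing notes. These counts were deposited for the barcodes called as cells (21857, 6908, 20938 and 23963). The study gives the lowest and highest of these numbers as its range of high-quality cells. The limits its methods state passed fewer of them here (12339, 2199, 7212 and 16316), and the reason was not tested. The study's limits were applied: over 200 genes and 1000 UMIs, complexity over 0.7, under 10% of UMIs mitochondrial and 5% from red blood cell genes. To call doublets, the method simulated 2 per cell, with 30 components over 2000 genes. Its setting of 20 neighbours was enlarged in proportion to the cells and simulated doublets together. The top 0.8% per 1000 cells was removed (1218, 39, 416 and 2130). A cell joined the class of which it held most of 12 markers, at least 3. Counts were summed per library and gate and scaled to CPM, with exact Poisson limits for levels, exact conditional binomial limits for ratios and Clopper-Pearson limits for shares. Counts of a symbol on several lines were added, which concerned 38 symbols. A gene was tested with at least 20 UMIs in both libraries together, classes were given from 20 cells, and zeros were set to 3 UMIs. No count model was fitted, since each condition has 1 library; edgeR 4.0.16 in R 4.3.3 gave trimmed mean of M values (TMM) factors as an alternative. Python 3.11.15, scikit-learn 1.9.0, scipy 1.17.1, numpy 2.4.6, matplotlib 3.10.9 and pandas 2.3.3 were used. On counts simulated as Poisson, which the limits assume, the limits held the true ratio for 95.7% to 96.3% of genes. Spread between cells or mice was not simulated. The members, the 66 pathway genes and the markers were chosen with earlier results of these data known. The genes named from the pathway list were the 4 highest and 4 lowest ratios of each comparison, and 3 genes per member were taken for likeness. The receptor libraries were not used here.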

Additional observations from a re-analysis of the deposited data

Results flagged for a closer look

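Il1b in MTZ-preventive against AS went opposite ways in 2 compartments. The log2 ratio was 1.62 in myeloid cells and -2.27 in stromal cells, with 1 library on each side, and the difference between the compartments was not tested. In marker-free stromal cells the log2 ratio was -0.11, with 6 Il1b UMIs in AS.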

How the results depend on the processing

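Of 864 ratios of single genes under alternative settings, 676 stayed within the counting limits of the reported value, 186 lay outside them, and 2 that had passed the 2-fold rule changed sign: with a looser cell filter, in AS against the library labelled Healthy, myeloid Nfkbiz had a log2 ratio of 0.0138 (from -1.37) and myeloid Tnfaip3 one of -0.34 (from 1.17), and the cause was not tested. Of 132 counts of called members, 109 stayed within 1.5 times. Some of these kept the count but not the members. In marker-free stromal cells the 1 member higher in AS than in the library labelled Healthy was Il6, in place of Il1b, which had 6 and 3 UMIs. With a gate of 5 markers, Tnfaip3 took the place of Il1rn among the 3 stromal members lower in MTZ-treated than in AS. The 23 counts that moved further were as follows, with members higher or lower in the library named first. For AS against the library labelled Healthy, whole libraries gave 1 lower without B-gated and T/NK-gated cells, 6 higher at 1.5-fold and 1 lower at 4-fold. Stromal cells gave 3 higher and 2 lower with the looser filter, 2 higher with doublets kept, 2 higher with adipocyte, Schwann and mesothelial gates added, and 2 lower either as a mean over cells or at 1.5-fold. For MTZ-treated against AS, whole libraries gave 1 higher (Ptgs2) without neutrophils and 2 higher (Il6, Ptgs2) at 1.5-fold. Stromal cells gave 1 higher (Ptgs2) by TMM, by the mean over cells or with the added gates, and 2 higher at 1.5-fold. With at most 1 marker of another class per cell they gave 1 higher (Il6) and 1 lower (Il1b), and without immune markers, an alternative chosen after seeing the data, 1 lower (Il1b). For MTZ-preventive against AS, whole libraries gave 1 higher (Nfkbid) at 4-fold. Stromal cells gave 1 lower (Il1b) with a gate of 5 markers, 0 lower with at most 1 outside marker or without immune markers, and 1 higher (Nfkbid) at 4-fold. No paired analysis was possible because each condition has 1 library. Depth limited Il1rn most, with 2 UMIs in the library labelled Healthy, and the lymphoid values of AS rest on 23 cells.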
